A study of Mus musculus with 2 samples.

Results

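The Myb locus of mouse chromosome 10 was described from 2 lists of H3K27ac peaks in MA9 leukaemia cells, one for the Gata2 f/f and one for the Gata2 KO genotype. All peaks that touched Myb, Hbs1l, Ahi1 or the 150 kb beyond the outermost of these genes were taken (mm10, chr10:20802232-21518889). These were 27 of 34272 peaks in f/f and 28 of 37234 in KO. The window was chosen by gene position and not by peak values. MA9 cells are bone marrow cells made leukaemic by the MLL-AF9 fusion. Per the labels, such cells from primary animals received Cre or its control MIT by transduction, were sorted for GFP and tdTomato, and spent several days in medium with SCF, IL-3 and IL-6 ahead of the ChIP. The f/f cells carry the floxed Gata2 alleles and the KO cells are Gata2 -/-. For strain, age and number of animals, nothing is given in the sources used here. H3K27ac, acetylation of lysine 27 on histone H3, marks active promoters and enhancers.

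MYB is a transcription factor that keeps blood progenitors dividing and holds back their maturation, and MLL-AF9 leukaemia cells are known to depend on it. In erythroid and progenitor cells, enhancers in the interval between Myb and Hbs1l are known to be bound by GATA factors, TAL1 and LDB1 and to loop to the Myb start. Ahi1, on the other side of Myb, encodes the ciliary protein jouberin and lies in a region where retroviruses insert in mouse leukaemias. Hbs1l encodes a GTPase that rescues stalled ribosomes.

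The libraries differed outside this locus. The f/f list had a peak at an end of Xist and 0 peaks on chromosome Y, and the KO list had no Xist end peak and 4 peaks on chromosome Y. Whatever lies behind this difference goes along with genotype here and cannot be told apart from it. On 6 chromosomes the first peak lay at least 1 Mb apart in the lists, chromosome 10 not being among them. Of 9 genes of MLL-AF9 myeloid cells, 9 in f/f and 6 in KO had a peak within 1000 bp of a gene end. Hoxa9, Meis1 and Mpo were those without one in KO. Peaks were still present around them. Over the gene and 25 kb on both sides, KO peaks covered 39.2% for Hoxa9, 10.5% for Meis1 and 4.42% for Mpo. The f/f values were 46.5%, 12.5% and 6.16%. Among genes of other cell types, such a peak was found in both lists for 1 of 5 erythroid and 2 of 5 T cell genes, and for 1 of 5 stromal and endothelial genes in f/f and 0 in KO. The genes with such a peak were Klf1 among the erythroid genes, Cd4 and Tcf7 among the T cell genes, and Pecam1 in f/f. Epor, Hba-a1, Slc4a1 and Gata1 had none in either list, nor had Lck, Cd8a and Cd3e. The share of all genes with a peak at a gene end is not given here for either list. For starts alone, 52.6% of protein-coding promoters had a peak of either list within 1000 bp. These marker counts therefore describe the lists and do not establish a cell type. With 1 library per genotype no difference below has a replicate check or a test, and read depth is unknown. More reads or a better enrichment also lengthen a list and widen its peaks, and this cannot be told apart from a difference in chromatin.

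Of the 3 genes, Myb and Ahi1 had a peak at their start and Hbs1l had none, and the promoter sequences are shown for that reason. RefSeq promoters (GRCm38.p6, the assembly of mm10) hold 250 bases before and 50 after the start, and all 3 genes matched. Capitals mark every match, on either strand, to the letters AGATAA or else TGATAA for GATA factors, AACTG or else AACGG for MYB, CGGAAG for ETS factors, TGTGGT for RUNX factors, TTGCNNCAA for C/EBP factors, CANNTG for an E-box and GGGCGG for a GC box. The letters AACTG can lie within an E-box. Myb is on the minus strand (chr10:21160935-21161234), Hbs1l (chr10:21295729-21296028) and Ahi1 (chr10:20952297-20952596) on the plus strand.
Myb: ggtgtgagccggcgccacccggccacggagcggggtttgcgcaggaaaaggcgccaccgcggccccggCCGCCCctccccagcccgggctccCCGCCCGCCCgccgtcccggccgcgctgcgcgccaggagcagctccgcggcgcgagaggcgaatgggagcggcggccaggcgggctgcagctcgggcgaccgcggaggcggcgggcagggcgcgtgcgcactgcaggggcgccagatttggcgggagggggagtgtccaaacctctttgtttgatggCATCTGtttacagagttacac
Hbs1l: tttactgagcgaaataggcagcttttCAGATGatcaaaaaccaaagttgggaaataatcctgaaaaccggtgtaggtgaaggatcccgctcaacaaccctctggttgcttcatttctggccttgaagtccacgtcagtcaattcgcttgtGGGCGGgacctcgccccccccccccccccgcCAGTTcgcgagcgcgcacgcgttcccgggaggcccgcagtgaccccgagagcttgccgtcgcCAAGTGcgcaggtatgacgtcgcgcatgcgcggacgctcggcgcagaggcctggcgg
Ahi1: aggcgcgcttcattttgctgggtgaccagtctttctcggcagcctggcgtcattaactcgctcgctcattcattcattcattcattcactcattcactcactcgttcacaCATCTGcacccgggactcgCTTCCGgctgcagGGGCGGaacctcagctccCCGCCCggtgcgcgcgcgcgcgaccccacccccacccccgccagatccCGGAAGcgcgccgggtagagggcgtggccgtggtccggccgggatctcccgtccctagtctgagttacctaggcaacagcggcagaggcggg
The Myb promoter was the richest in GC, with 40 CpG and a GC content of 75%, and 94.9% of protein-coding promoters held fewer CpG. It held 3 GC boxes and 1 E-box. The Hbs1l promoter held 29 CpG, 2 E-boxes, 1 GC box and 1 MYB match. The Ahi1 promoter held 31 CpG, 2 ETS matches, 2 GC boxes and 1 E-box. None of the 3 promoters printed above held the GATA, RUNX or C/EBP letters within these 300 bases. A second promoter of Ahi1, not printed, held 1 GATA match. Over all 32851 promoters, GATA letters were found in 18.6%, MYB in 55.1%, ETS in 16.9%, RUNX in 16.8%, C/EBP in 2.08%, E-box in 72.3% and GC box in 35.7%. These matches describe letters only.

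Peaks took up the largest shares of bases in Myb and Ahi1, and none lay over Hbs1l. Peaks covered 47493 bp of the window in f/f and 52649 bp in KO, or 6.63% and 7.35% of its bases, and 39315 bp were covered in both. The KO to f/f ratio of covered bases was 1.11 here, 1.02 on chromosome 10 and 1.05 over all chromosomes. Myb itself (chr10:21124930-21160984) was the segment with the highest share under peaks, 24.1% in f/f and 31.0% in KO. Ahi1 (chr10:20952232-21080429) followed with 13.7% and 15.7%, and the 44.5 kb between Ahi1 and Myb had 9.94% and 9.68%. The 135 kb between Myb and Hbs1l had 5.07% in f/f and 4.89% in KO, close to the 150 kb beyond Ahi1 with 5.84% and 6.16%. Within the first 50 kb upstream of the Myb start, 5.99 kb lay under f/f and 6.61 kb under KO peaks. The 150 kb beyond Hbs1l had 0.813% and 0.827%. Hbs1l (chr10:21295979-21368889) had 0 peaks in both lists. When a fold of at least 3 was required the window held less in KO than in f/f, 14090 against 15811 bp. That ratio was 0.891, and over all chromosomes the same filter gave 0.833, so that the order of the lists turned genome-wide as well. Under other settings KO covered more of the window than f/f but less of the genome. The ratios were 1.06 and 0.951 with a -log10 q of at least 5. They were 1.05 and 0.988 with the strongest 20000 peaks of each list, and 1.09 and 0.992 with equal peak numbers. This difference was not tested.

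**Figure D1:**
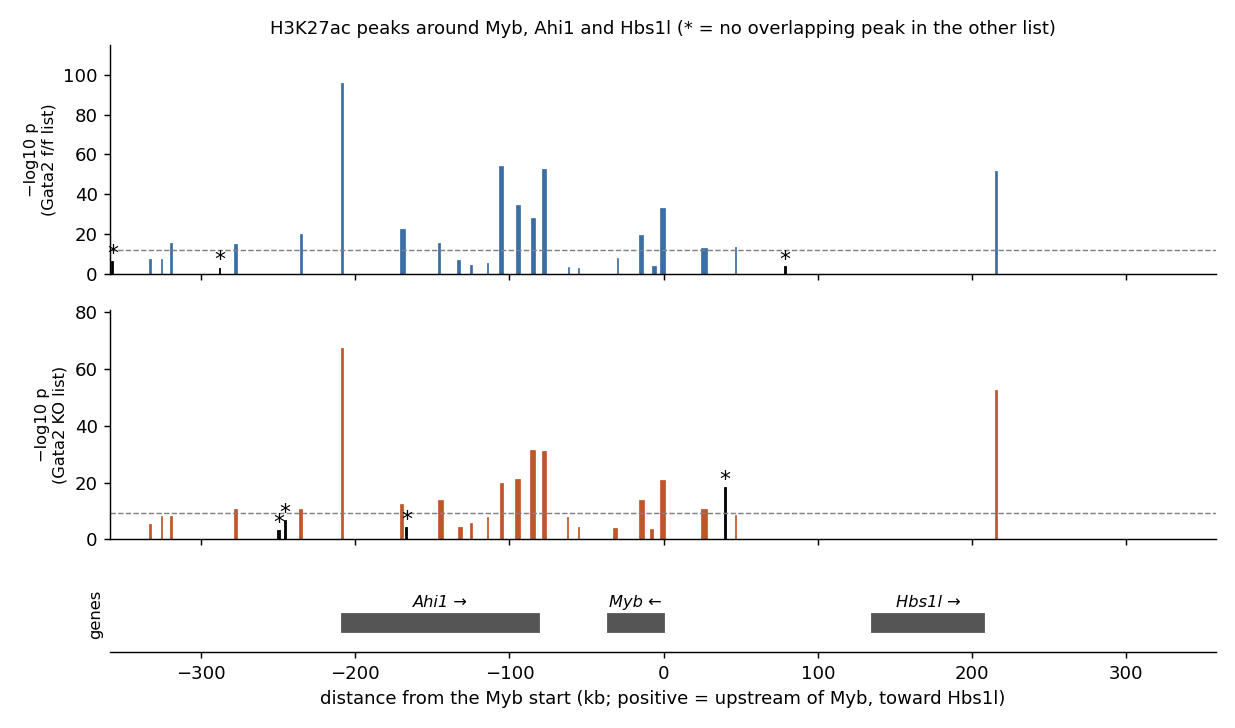
Peaks of the window in the f/f list (top) and the KO list (middle), with the genes and their direction below. The x axis is the distance from the Myb start in kb, bar height is the authors' -log10 p within each list, bar width is the peak width, dashed lines are the list medians (12.2 and 9.41), and stars and black edges mark peaks with no overlapping peak in the other list. Peaks crowd between Ahi1 and the Myb start, and none lies over Hbs1l.

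**Figure D2:**
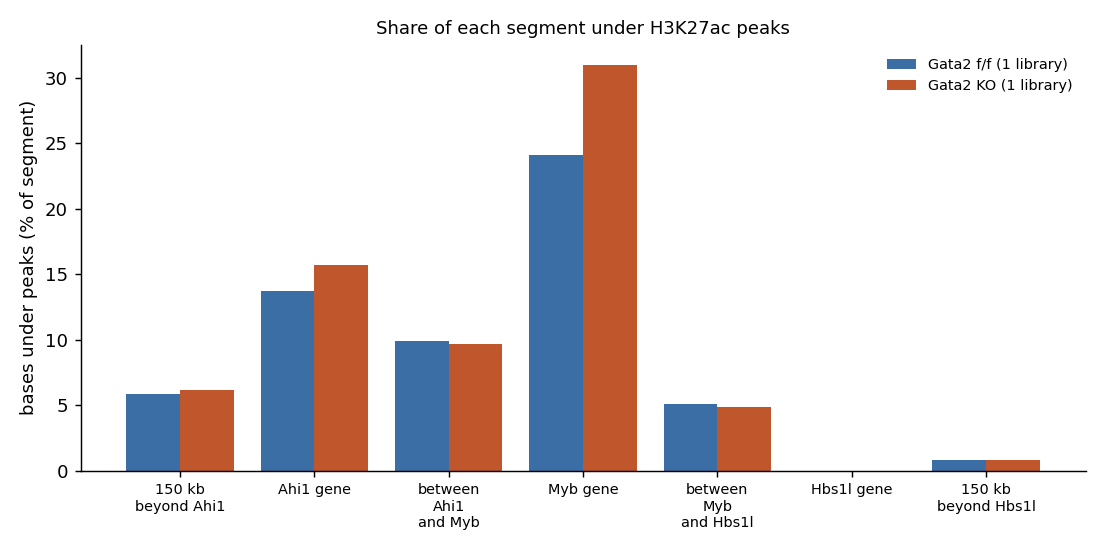
Percent of the bases of each segment under peaks, for 1 library per genotype and with no error bars for that reason. The Myb gene stands highest with 24.1% for f/f against 31.0% for KO, and Hbs1l is at 0 in both.

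The Myb start lay under a peak of nearly the same width in both lists. The peak over it was 3345 bp wide in f/f and 3376 bp in KO, running from 0.7 kb upstream to 2.6 kb downstream of the start, and the f/f peak lay wholly under the KO peak. It was a strong call in each list, with a -log10 p of 33.1 in f/f and 20.8 in KO. These lay above 73.2% of f/f and 71.4% of KO peaks, and the peak was wider than 97.5% and 97.9% of them. Whether the level of the mark was equal cannot be read from the lists. It covered the whole promoter sequence printed above.

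The higher coverage of the Myb gene in KO came from its interior. A peak 30 kb into the gene, near its 3' end, spanned 570 bp in f/f (29.8 to 30.4 kb downstream of the start) and 3141 bp in KO (30.0 to 33.1 kb), a ratio of 5.51. Both were weak, as f/f gave it a -log10 p of 8.06 and KO one of 4.02, below the list medians of 12.2 and 9.41. The lists shared 400 bp of it, 70.2% of the f/f peak and 12.7% of the KO peak. When a -log10 q of 5 or more was required, only the f/f peak remained (6.04, against 2.12 in KO), so the excess in KO here rests on a weak call. A strong peak at 13.5 to 16.2 kb in f/f, with a -log10 p of 19.7, spanned 2772 bp, and its KO counterpart at 12.5 to 16.2 kb spanned 3708 bp with a -log10 p of 13.7. A weak peak nearer the start went the other way, with 2727 bp at 5.0 to 7.7 kb in f/f and 1675 bp at 7.0 to 8.6 kb in KO, the lists sharing 790 bp of it. The gene table holds no exons, so exonic and intronic bases were not separated. All 4 regions over Myb were present in both lists, 3 of them with more bases in KO, at the start by only 31 bp. No such count over the genome is given here.

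Over Myb and 25 kb on both sides, peaks took up 12.9% of bases in f/f against 16.3% in KO. The difference was 3.4 points, and 4.53% of 21887 protein-coding genes had a difference at least as high. The size of the excess in KO depends on the weak calls. Over the gene KO covered 2462 bp more than f/f, of which the strong peak at 13.5 to 16.2 kb gave 936 bp. When a -log10 q of 5 or more was required, the Myb gene had 5978 bp under f/f and 6351 bp under KO peaks, and the difference over the gene was 1.03 points in place of 6.83. With the strongest 20000 peaks of each list it had 5408 and 6351 bp, or 2.62 points. A fold of 3 or more left 0 bp in both, the strong peak over the start included.

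**Figure D3:**
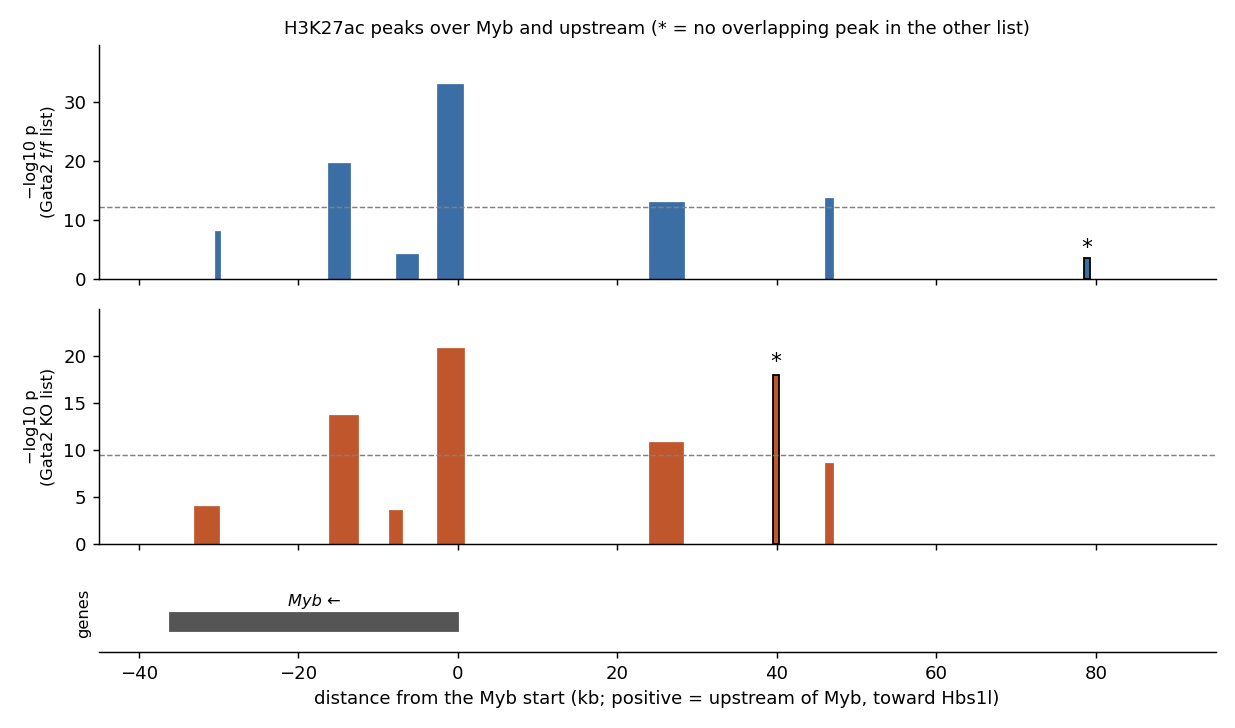
Peaks over Myb and up to 95 kb upstream, plotted as in the map of the whole window. The peak over the start is alike in width in both lists, the widest peak of the window lies 24.0 to 28.3 kb upstream in f/f, and the starred KO peak at 39.6 to 40.2 kb has no f/f counterpart.

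Upstream of Myb, toward Hbs1l, 3 regions lay within 50 kb of the start and 1 beyond. The nearest was the widest of the window, at 24.0 to 28.3 kb in f/f (4349 bp) and 23.9 to 28.2 kb in KO (4249 bp), and it was wider than 99.3% of the peaks of either list. It lies over the noncoding RNA genes Gm40608 and Gm33619. The lists shared 4214 bp of it, and its -log10 p was above the median in both, namely 13.1 for f/f and 10.8 for KO. A narrower region at 46.1 to 47.0 kb was also in both lists, with 929 bp in f/f against 943 bp in KO, 899 bp of them shared.

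Between these 2 shared regions, the KO list had a peak of its own. It lay 39.6 to 40.2 kb upstream of the Myb start (chr10:21200541-21201222), was 682 bp wide and had a -log10 p of 18.0 and a fold of 5.20, higher than 68.3% and 90.9% of KO peaks. The nearest f/f peak lay 5.86 kb away, and no gene of the table overlaps it. Of 11798 KO peaks at least as strong, 1.90% had no f/f peak, and on chromosome 10 this held for 9 of 611 (1.47%). Among the 3405 KO peaks with at least its fold, 2.56% had none. It also passed each of the filters on peak strength, as did none of the other 6 peaks of the window found in 1 list alone. Whether it would be found in another KO library was not tested.

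Further upstream the f/f list had a peak of its own at 78.5 to 79.3 kb (chr10:21239443-21240304), within the noncoding RNA gene Gm33728. It was 862 bp wide with a -log10 p of 3.50, and only 4.25% of f/f peaks were weaker. The nearest KO peak lay 31.5 kb away. The balance of the Myb to Hbs1l interval turned on this weak peak. With all peaks, f/f covered 6849 bp and KO 6607 bp, and at a -log10 q of 5 or more they covered 5987 and 6607 bp.

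Enhancers of erythroid cells are recalled from the literature at about 36, 61, 68 and 81 kb upstream of Myb, distances that were not checked against a source here. Neither list had a peak within 1 kb of these points. The f/f peak at 78.5 to 79.3 kb lay 1.68 kb from the point at 81 kb, and the KO peak at 39.6 kb lay 3.56 kb from the point at 36 kb. At 61 kb the nearest peak was 14.0 kb away in both lists, and at 68 kb 10.5 kb in f/f and 21.0 kb in KO. Since the distances are rounded and come from other cells, a miss of a few kb does not show that an enhancer is unmarked.

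From there to beyond Hbs1l neither list had a peak for 136 kb (chr10:21240305-21376077), and the KO list had none for 168 kb. Of 42566 stretches between neighbouring regions, 6.61% were at least as long. The stretch holds the whole of Hbs1l with its CpG-bearing promoter. A peak of either list within 1000 bp of the start was found at 52.6% of protein-coding promoters. Among the 3649 with at least as many CpG as that of Hbs1l, 16.6% had no peak in either list. No peak over the gene and 1000 bp on both sides was found in either list for 37.5% of protein-coding genes. The next peak lay 215.1 to 216.3 kb upstream of Myb in f/f and 215.2 to 216.4 kb in KO, beside Aldh8a1, which encodes an aldehyde dehydrogenase (chr10:21377300-21396578). It was strong in both lists, with a -log10 p of 51.8 for f/f and 52.4 for KO, and of nearly the same width, 1220 and 1240 bp. No other peak lay in the 150 kb beyond Hbs1l.

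Ahi1 carried the strongest peak of the window at its start and a row of intragenic peaks toward Myb. The start peak spanned 1312 bp in f/f against 1323 bp in KO, with a -log10 p of 95.9 and 67.1, above 91.7% and 94.9% of their lists. RefSeq gives Ahi1 a second start inside the gene (chr10:21040570-21040869), and no peak lay within 1000 bp of it in either list. Its promoter held 3 CpG, 4 E-boxes and 1 match to the GATA letters, which 18.6% of all promoters held. Of 9 regions in both lists with their middle in the gene, 7 had more bases in KO and 2 fewer. KO minus f/f ran from 2 to 1792 bp in the 7, the smallest being 2, 11 and 18 bp, and was -147 and -1081 bp in the 2. No such count over the genome is given here, where the median KO to f/f ratio of shared regions was 0.991. The largest excess in KO was at 143.0 to 146.5 kb downstream of the Myb start, where the KO peak was 3458 bp and the f/f peak 1666 bp, a ratio of 2.08. The next toward the Ahi1 start had 2967 bp under f/f and 1886 bp under KO peaks, and a KO peak of 461 bp (-log10 p 3.99) lay 0.930 kb from the nearest f/f peak. Nearer Myb, at 104.3 to 106.5 kb in f/f, a peak of 2214 bp with a -log10 p of 54.4 had a KO counterpart of 2067 bp. The 3' part of Ahi1 held 2 more wide regions in both lists. One spanned 2744 bp in f/f against 3681 bp in KO, and the other, 83.1 to 86.3 kb from the Myb start, spanned 3199 and 3201 bp.

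With 25 kb on either side, Ahi1 was covered at 12.3% in f/f against 13.5% in KO, and 18.9% of protein-coding genes had a difference at least as high. Between Ahi1 and Myb, a strong region at 76.0 to 78.7 kb in f/f had 2766 bp against 2593 bp in KO. The other 2 there were weak in both lists, one wider in f/f (1018 and 676 bp) and the other in KO (638 and 1040 bp). Over Ahi1 and this interval together, f/f covered 21966 bp and KO 24394 bp, and when a fold of 3 or more was required they covered 5421 and 4302 bp.

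Most of the locus was shared, at rates near those of the whole lists. Of the f/f peaks, 3 of 27 (11.1%) overlapped no KO peak, against 16.2% over all f/f peaks. Of the KO peaks, 4 of 28 (14.3%) overlapped no f/f peak, against 22.6% over all KO peaks. The 3 f/f peaks and 3 of the 4 KO peaks were weaker than the median of their list, and in that weaker part 29.9% of f/f and 40.9% of KO peaks had no counterpart. In the stronger part these shares were 2.52% and 4.23%, and the KO peak 39.6 kb upstream of Myb was the member of that kind. The 4 peaks in 1 list alone that lie beyond Ahi1 were at 357.0 to 357.6 kb and 287.3 to 287.9 kb downstream of the Myb start in f/f and at 249.0 to 249.8 kb and 245.0 to 245.7 kb in KO.

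Merging both lists gave 31 regions, 24 of them in both. In these 24, 16 had more bases in KO and 8 more in f/f, with a median KO to f/f ratio of 1.01, against 0.991 over 28627 such regions of the genome. KO minus f/f ran from 2 to 2571 bp in the 16 and from -31 to -1081 bp in the 8. These counts therefore give direction and not size, and no such count over the genome is given here. A width at least 1.5 times greater in KO was found for 3 of the 24 (12.5%, genome 10.4%), and at least 1.5 times greater in f/f for 3 (12.5%, genome 10.4%). Those wider in KO were the peak near the 3' end of Myb, the one inside Ahi1 and the weak one between the genes. Shares this close to the genome's do not set the locus apart.

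**Figure D4:**
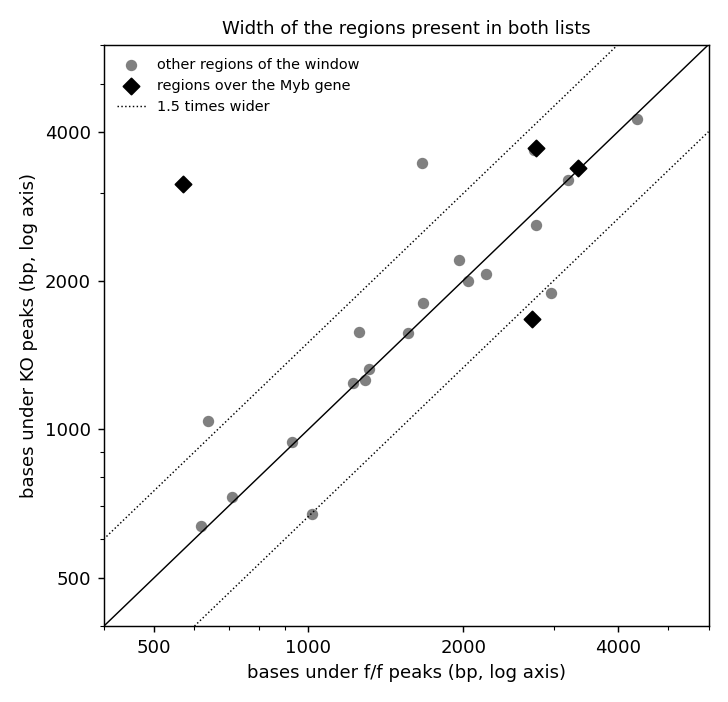
Bases under f/f peaks against bases under KO peaks for the 24 regions in both lists, on log axes in bp. The solid line marks equal width and the dotted lines 1.5 times wider, and diamonds are the 4 regions over Myb, of which the one with 570 bp in f/f against 3141 bp in KO lies farthest from equality.

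The peaks over Myb had low fold enrichment in both lists, and the one over the start was also low for its strength. Fold enrichment is the authors' value for each peak over the background of the caller and is used here only within a list. Over Myb it ran from 1.5 to 2.50 in f/f and from 1.48 to 2.09 in KO, against list medians of 3.51 and 3.09. Only 12.6% of f/f and 4.18% of KO peaks had a fold at or below the highest of these 4. The peak over the Myb start had a fold of 2.19 in f/f and 2.09 in KO. Among the 9173 f/f peaks with at least its -log10 p of 33.1, 27 (0.294%) had no higher fold, and in KO 52 of 10638 (0.489%). Width goes with this: among peaks at least as wide as that over the Myb start, 20.8% in f/f and 29.0% in KO had no higher fold. Low fold was not limited to Myb within the window, whose median fold was 2.73 in f/f and 2.83 in KO. Strong, wide f/f peaks in the 3' part of Ahi1 had a fold of 2.54 and 2.55, the one between Ahi1 and Myb 2.73, and the widest peak of the window, upstream of Myb, 2.52. The narrower peaks at the Ahi1 start (6.09 in f/f and 6.0 in KO) and beside Aldh8a1 (6.08 and 5.92) were higher. Requiring a fold of 3 or more removes all peaks over Myb and much of the coverage around it.

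**Figure D5:**
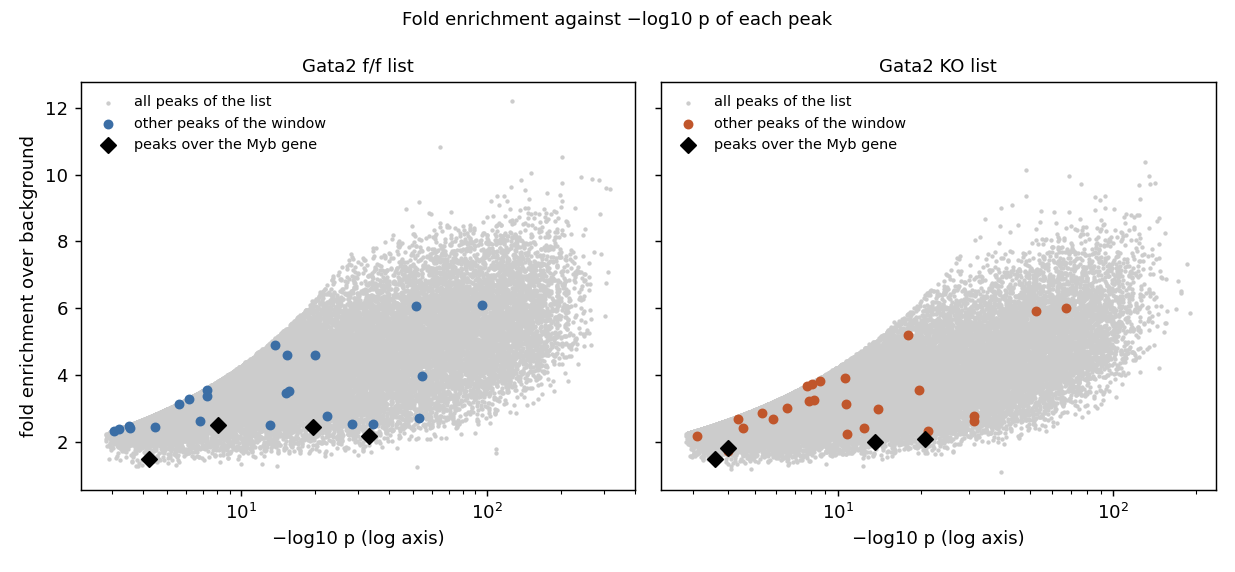
Fold enrichment against -log10 p (log axis) for all peaks of each list (grey), the window's peaks (colour) and the 4 peaks over Myb (diamonds). The diamonds lie along the lower edge in both lists, with a fold of 1.5 to 2.50 in f/f and 1.48 to 2.09 in KO.

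Genes around MYB in function were compared by the share of the gene with its 25 kb flanks that peaks covered. Over all protein-coding genes 8878 were higher, 7417 lower and 5592 equal in KO, with a median difference of 0. The 3 family genes were higher in KO, with Mybl2, a cell cycle factor, at 8.05% in f/f against 11.8% in KO, and Mybl1, best known from the testis, at 1.91% and 1.93%. Of 8 partners and coactivators 5 were higher and 3 lower, with a median of 0.27 points. Men1, the menin gene (13.3% and 17.1%), and Cebpb, a myeloid factor (20.9% and 24.5%), had the largest differences up, and Taf12 (9.55% and 8.68%) and Kmt2a, the MLL gene itself (7.03% and 6.51%), the largest down. Of 13 factors known to bind enhancers of Myb 7 were higher and 6 lower, with a median of 0.36 points. Spi1 (13.6% and 17.7%) and Lmo2 (16.1% and 19.2%) led upward, and Hoxa9 (46.5% and 39.2%) and Gata2 (15.4% and 8.41%), the deleted gene, downward. Of 11 genes that MYB is known to activate 5 were higher and 6 lower, with a median of -0.38 points. The repressor gene Gfi1 (19.3% and 24.9%) and the kinase gene Cdk6 (15.7% and 20.6%) were higher by the most, and the elastase gene Elane (33.6% and 24.2%) and the receptor gene Flt3 (9.21% and 4.62%) were lower by the most. Apart from the family, the lists went both ways. The family is only 3 genes, Myb itself among them, and Mybl1 differed by just 0.02 points. No count was tested.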

How the data were processed

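H3K27ac ChIP-seq of 2 libraries was analysed, 1 per genotype, grouped by the genotype in the labels. Per the submitters' processing notes, BWA, SAMtools and MACS2 were used with mm10. For versions, options, control and read numbers, nothing is given in the sources used here. The deposited lists are in broadPeak layout, and the authors' fold enrichment is a ratio over background. The authors' -log10 p and -log10 q were deposited for each peak and served only to rank or filter within a list. The deposited score is the -log10 q in another form and was not used.

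Only the autosomes 1 to 19, X and Y entered. Peak numbers, positions and covered bases were computed with Python 3.11.15, numpy 2.4.6 and pandas 2.3.3, and interval code was tested on simulated data. Overlap needed 1 bp. Overlapping peaks of both lists were merged into regions. Genes, promoters and strands came from RefSeq tables of GRCm38.p6. The distance upstream of Myb grows toward Hbs1l. Named genes were the 3 genes and others in the window, and per functional list the 2 with the largest difference each way. Members, lists and recalled enhancer distances were chosen with earlier results of these data known. Sequence under the distal peaks was not used here, and 1 planned marker list is not reported here. Alternatives were a -log10 q of at least 5, at least 3-fold enrichment, equal peak numbers (34272 per list), the strongest 20000 per list, other overlaps and merging, and flanks of 100 and 250 kb.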

Additional observations from a re-analysis of the deposited data

How the results depend on the processing

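Coverage differences are KO minus f/f in percentage points. Over the window the difference was 0.72, and it was 0.32 with a -log10 q of at least 5, 0.24 with the strongest 20000 peaks and -0.24 with at least 3-fold enrichment. Between Myb and Hbs1l it was -0.18 and turned to 0.46, 0.46 and 0.52 under the same 3 settings, since the weak f/f peak there drops out. In the Myb gene it was 6.83, and 1.03, 2.62 and 0.00. For Ahi1 with the interval to Myb it was 1.41, and 0.77 with the strongest 20000 and -0.65 with at least 3-fold enrichment. The cause was not tested beyond this. Peaks in f/f alone numbered 3, but 1 among the strongest 20000 and 6 when 50% of the peak had to overlap. Peaks in KO alone numbered 4, but 1 and 9. Regions at least 1.5 times wider in one list numbered 6, but 2 with a -log10 q of at least 5, 0 with at least 3-fold enrichment and 2 with the strongest 20000. Equal peak numbers in both lists moved no difference or count by over 1.5 times. No paired analysis was possible because each genotype has 1 library. Depth is unknown, and weak or narrow peaks absent from a list may be undetected in it.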

Other observations

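Covered bases were fewer on the Hbs1l side of the Myb start than on the Ahi1 side. Going downstream, the first 50 kb held 8.71 kb under f/f and 11.2 kb under KO peaks, and the next 50 kb held 10.4 and 11.2 kb. From 100 to 150 kb downstream, f/f peaks covered 7.80 kb and KO peaks 10.0 kb. Upstream, the first 50 kb held 5.99 and 6.61 kb, the next 50 kb 0.862 and 0 kb, and the 100 kb after that 0 in both lists.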
